A study of Caenorhabditis elegans with 4 samples.

Results

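Chromosome V of Caenorhabditis elegans carried 257 of the 1828 binding sites that the authors' combined list gave for the transcription factor ZTF-4 in L2 larvae. The members are every line of that list with V as its chromosome, and each site runs from the listed start to the listed end. The lists of the 2 ChIP samples, with 115 V sites in replicate 1 and 122 in replicate 2, served as evidence for single sites, also where the combined list has none. All samples came from hermaphrodites of strain OP322, kept at 20 degrees Celsius and crosslinked in 2% formaldehyde. The strain carries the mutation unc-119(ed3) and the insertion wgIs322, which holds both a fusion written as ztf-4::TY1 EGFP FLAG and a working copy, unc119(+). The transgene was made by recombineering and brought in by particle bombardment, so ZTF-4 was measured as a tagged transgene product in whole larvae. Each ChIP sample was pulled down with an antibody against GFP, and the remaining 2 of the 4 samples were input DNA of the same strain. No sample of an untagged strain and no list for the input samples was analysed here.

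ZTF-4 belongs to a family of putative zinc finger transcription factors, proteins that hold DNA through folds built around a zinc ion. In ChIP-seq, DNA crosslinked to the tagged protein is pulled down and sequenced, and a site is a stretch where reads pile up beyond the input. Chromosome V is the longest chromosome of the worm. Like the other autosomes it has a central part, where crossovers are rare and broadly conserved genes are common, and arms on both sides, where crossovers, repeats and fast-changing gene families are common. V is known for very large families of chemoreceptor genes. Which genes lie next to the sites was not analysed here, because the positions are on WormBase WS180 and no annotation of that release was used. No DNA sequence of a site is printed for the same reason.

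The strength of a site is given as −log10 q, where q is the authors' own value for that site, so that a value of 10 stands for q = 1e-10 and a higher value for a stronger call. The lists hold no read counts and the depth of each sample is unknown, so a q-value cannot be compared between lists as an amount of binding. The highest q was 0.00015 among combined sites, 9.41e-05 in replicate 1 and 9.22e-05 in replicate 2. Places with no listed site are not shown to be unbound. Labels do not say whether the replicates were separate worm cultures. Tests over sites treat them as independent, although many lie in groups, so that their p-values are too small and cover counting error only.

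Sites were sparser on V than on the other autosomes. The combined list held 12.3 sites per Mb of V, against 15.5 on II, the lowest of the other autosomes, and the sites covered 1.27% of V against 1.70% of II. The X chromosome was close to V, with 13.2 sites per Mb and 1.43% covered, and with 6.01 and 6.52 sites per Mb in replicates 1 and 2 beside 5.52 and 5.85 on V. The difference between V and X was not tested. The centre of V, taken as the middle part from 25 to 75% of its length, held 180 sites or 17.3 per Mb. The centres of the other 4 autosomes held 26.8 per Mb, which puts V at 0.645 of their density (exact binomial test against equal density, adjusted p = 3.13e-08). That pooled value spans 20.1 per Mb on II to 36.0 on III. The arms of V held 77 sites or 7.39 per Mb, against 16.7 per Mb in the arms of the other autosomes, a ratio of 0.441 (exact binomial test, adjusted p = 4.22e-13). Both density tests were added after the data were seen and were adjusted apart from the planned comparisons.

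The same comparison in the replicate lists gave fewer sites per Mb on V in both parts. In replicate 1 the V centre held 7.77 sites per Mb against 10.5 (exact binomial adjusted p = 0.016) and the V arms held 3.26 against 6.53 (adjusted p = 6.47e-05). In replicate 2 the centre held 8.54 against 11.96 (exact binomial adjusted p = 0.00364) and the arms 3.17 against 6.76 (adjusted p = 1.49e-05). These adjusted values equal the unadjusted ones, because each was adjusted beside the combined-list value of the other density. The arms of V had the lowest density of any autosome's arms in each of the 3 lists. In the combined list the closest were the arms of chromosome II, with 10.9 per Mb (95% Poisson interval 8.68 to 13.5) beside 5.83 to 9.23 for V. These intervals overlapped. In replicate 1 the interval of the V arms, 2.26 to 4.56, overlapped those of II (3.86 to 7.30) and I (4.13 to 7.69). In replicate 2 it was 2.18 to 4.45 and overlapped that of the II arms, 3.97 to 7.45. The centre of V was the lowest in the combined list and in replicate 2, while in replicate 1 the centre of chromosome I, with 7.43 per Mb, lay below it. In the combined list its interval, 14.8 to 20.0, overlapped that of the II centre, 17.0 to 23.5. In replicate 1 the centres of IV and II, at 8.70 and 9.45, were also near V, and III stood far higher at 17.1. By rank the V arms were thus lowest in every list and the V centre was not, while the intervals of both overlapped those of II. Whether low arms are more particular to V than a low centre was not tested. With sites less than 20 kb apart taken as 1, the arms still differed, with a ratio of 0.607 (exact binomial adjusted p = 0.000954). The centre no longer passed, with 9.31 against 11.4 groups per Mb (ratio 0.818, exact binomial adjusted p = 0.0818). Over the 5 alternatives for the centre the adjusted p went from 3.38e-07 to 0.0818, and for the arms from 5.60e-16 to 0.000954.

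**Figure D1:**
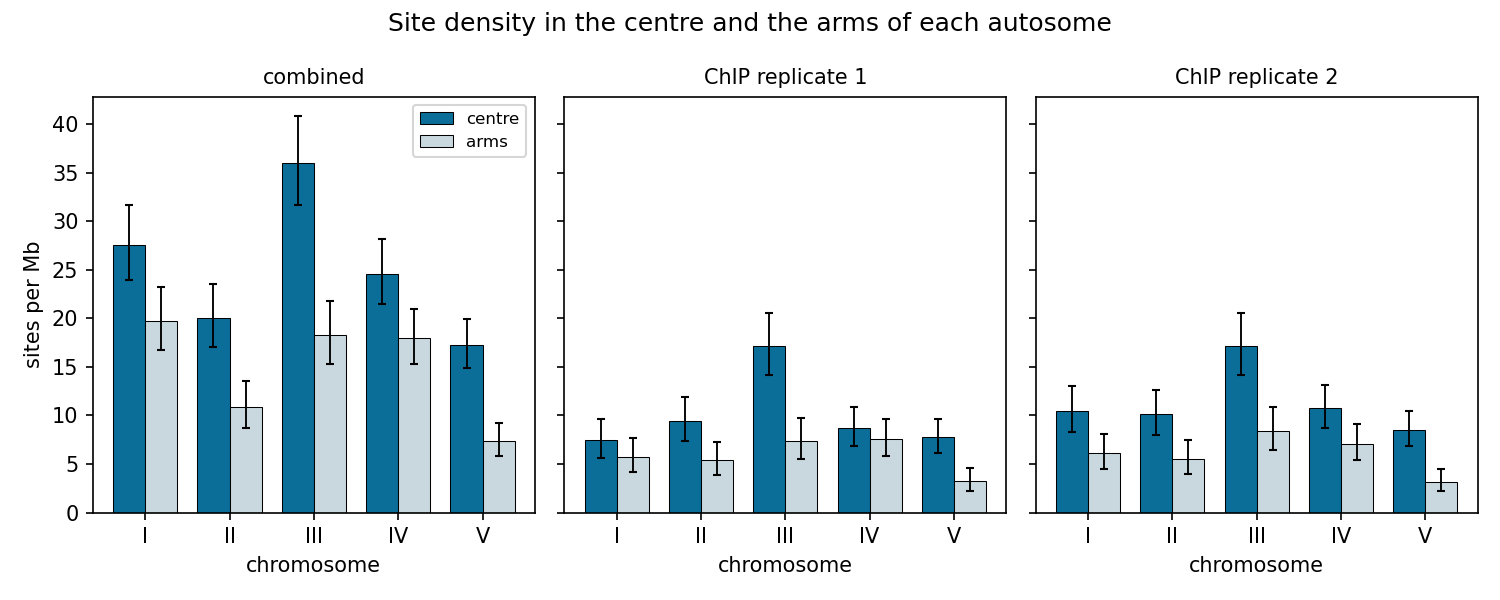
Sites per Mb (y axis) in the centre and the arms of each autosome (x axis), with 1 panel for each list and 95% Poisson intervals as error bars. The arms of V are the lowest pale bar in every panel, at 7.39, 3.26 and 3.17 sites per Mb.

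The share of sites in the centre was 70.04% on V (64.2 to 75.3%, a 95% Wilson interval, as for all shares below) and 61.5% (58.9 to 64.1%) on the other autosomes. Over all autosomes 62.9% of combined sites lay in the centre. The difference between V and the rest did not pass after adjustment over the 11 comparisons made of V sites (odds ratio 1.46, Fisher's exact test, two-sided, p = 0.011, adjusted p = 0.122). With a narrower centre, from 30 to 70% of the length, the shares were 63.4 and 52.8% and the difference passed (Fisher's exact test, adjusted p = 0.0225). It also passed among sites with q under 1e-05, at 73.2 against 61.1% (Fisher's exact test, adjusted p = 0.0348). Over the 5 alternatives run for this share the adjusted p went from 0.0225 to 0.858.

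**Figure D2:**
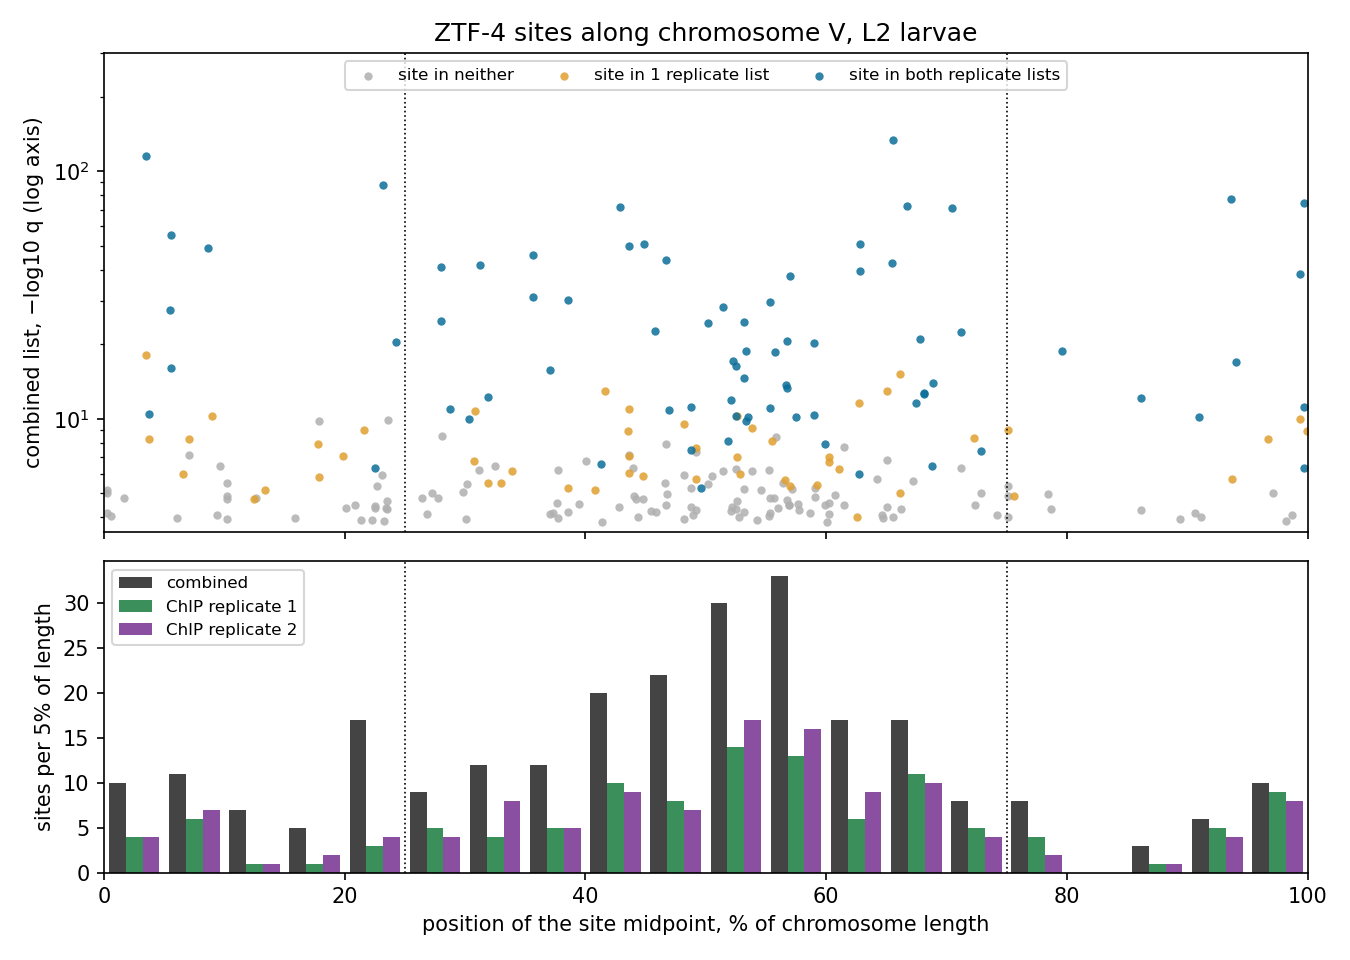
Upper panel, −log10 q of the 257 combined V sites on a log axis against position as a percentage of chromosome length, coloured by the replicate lists in which a site was found. Lower panel, sites per 5% of length in the 3 lists; dotted lines mark 25 and 75%, and all lists are highest just right of the middle.

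In strength the V sites ranged from 3.83 to 134 with a median −log10 q of 5.98, and the quartiles were 4.52 and 10.8. Sites elsewhere had a median of 6.69, with quartiles of 4.83 and 11.2. The medians of the other chromosomes ran from 6.53 on IV to 7.20 on II, so V had the lowest median of the combined list. In the replicate lists the V medians, 6.46 and 6.51, lay within the range of the other chromosomes, from 5.78 to 6.56 in replicate 1 and from 5.77 to 7.14 in replicate 2. Sites with q under 1e-10 numbered 74 on V, or 28.8% (23.6 to 34.6%), beside 29.4% over all chromosomes (V against the rest, Fisher's exact test, odds ratio 0.968, adjusted p = 0.901). At the top of the list V was well represented, with 21 of the 100 strongest combined sites and 14.1% of all sites. That count was chosen after it was seen, and at q under 1e-20 the share was 13.6% on V and 11.5% elsewhere (Fisher's exact test, adjusted p = 0.787, in a range of 0.644 to 0.94 over 5 alternatives).

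Widths on V ran from 67 to 7493 bp with a median of 642 bp, against 636 bp elsewhere. Wider than 1000 bp were 77 V sites, 29.96% of them, beside 28.1% over all chromosomes (V against the rest, Fisher's exact test, odds ratio 1.11, adjusted p = 0.901). Strength and width went together over the 257 sites, with a Spearman rho of 0.639 across sites of the same list. Only 7 of the 74 sites with q under 1e-10 were narrower than 600 bp. The strongest of these ran from 9546772 to 9547227, 456 bp wide, with a combined q of 2.24e-23 and replicate values of 2.78e-13 and 3.74e-10. It had no neighbour closer than 14518 bp.

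Of the 257 combined V sites, 76 overlapped a site of both replicate lists by at least 1 bp, which is 29.6% (24.3 to 35.4%), beside 28.8% over all chromosomes. Another 50 (19.5%) were found in 1 list, 22 of them in replicate 1 and 28 in replicate 2, and 131 (51.0%, 44.9 to 57.0%) in neither, beside 52.4% over all chromosomes. The difference between V and the rest in the share found in both did not pass (odds ratio 1.04, Fisher's exact test, adjusted p = 0.901), and leaving out either replicate gave odds ratios of 1.007 and 1.11. With midpoints within 100 bp required, the share found in both was 10.1% on V and 13.2% elsewhere, and the direction turned (odds ratio 0.742, Fisher's exact test, adjusted p = 0.644). The combined list draws by its name on the same ChIP samples, so overlap with the replicates is not independent evidence for a site. For sites found in both, the median −log10 q was 17.9 and the median width 1277 bp. Those found in 1 list had 7.04 and 648 bp, and those found in neither 4.56 and 490 bp.

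Replicate support was most common among the strongest sites, an order that is not independent of the q limits of the lists. The replicate lists end at q = 9.41e-05 and 9.22e-05, and the weakest group below has combined q from 3.14e-05 to 0.000148. Where a site was in both lists, its combined −log10 q was a median of 0.996 times the sum of the replicate values. That ratio was taken only over sites already in both lists. The weakest of them, from 10342936 to 10343193, had a combined −log10 q of 5.24, with 4.17 and 4.29 in replicates 1 and 2. How far the limits set the order among weak sites was not tested. Divided into 4 groups of like size by q, the 65 strongest V sites were found in both lists in 58 cases (89.2%, 79.4 to 94.7%) and in 1 list in the other 7. None of the 65 was found in neither (Wilson upper bound 5.58%; 3 counts of 65 would be 4.62%). In the second group 17 of 64 sites (26.6%) were in both lists and 21 (32.8%) in neither. In the third 1 site was in both and 47 (73.4%) in neither, and in the weakest group 63 of 64 (98.4%) were in neither. On the other chromosomes the share found in both went from 85.5 to 25.2, 3.31 and 0.765% in the same order. The share found in neither went from 2.80 to 37.2, 77.1 and 93.6% there. Groups were cut by q on V and elsewhere apart, so their limits differ. For example, the second group ended at q = 1.04e-06 on V and 2.05e-07 elsewhere.

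**Figure D3:**
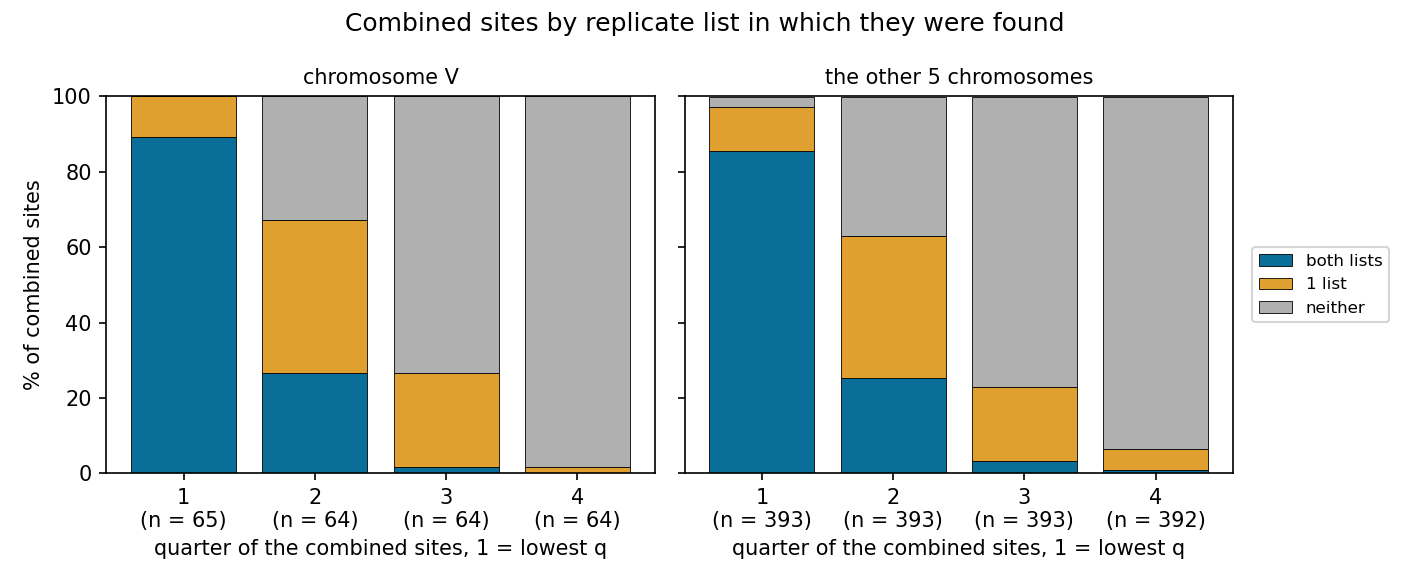
Percentage of combined sites (y axis) found in both replicate lists, in 1 or in neither, for 4 groups of like size ordered by q (x axis), on V and on the other chromosomes. On V the share found in both goes from 89.2% in the strongest group to 0 in the weakest, an order that is not independent of the q limits of the replicate lists.

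By rank, the 38 strongest combined V sites were all in both lists. The first exception was rank 39, from 730169 to 731781, with a combined q of 8.72e-19, a replicate 2 value of 5.19e-07 and no replicate 1 site. Rank 45, from 13786514 to 13789887 and 3374 bp wide, had q = 6.04e-16 and was matched in replicate 1 alone, at 1.97e-07. The strongest site in neither list was rank 76, from 4911470 to 4912717, with q = 1.25e-10, followed by rank 77, from 3715807 to 3716808, with 1.50e-10. Both lie in the left arm and are 1248 and 1002 bp wide.

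Between the replicates themselves, 92 of the 115 replicate 1 sites on V overlapped a replicate 2 site (80%, 71.8 to 86.3%), beside 79% over all chromosomes. In the other direction 91 of 122 replicate 2 sites had a partner (74.6%, 66.2 to 81.5%), beside 71.5%. For neither share did the difference between V and the rest pass (odds ratios 1.07 and 1.20, Fisher's exact test, adjusted p = 0.901 for both). With midpoints within 100 bp required, 42.6 and 40.2% remained on V, beside 46.6 and 42.4% elsewhere, so the direction turned (odds ratios 0.851 and 0.912). In replicate 1 the median −log10 q was 4.86 for the 23 unmatched sites and 7.37 for the matched ones, and the median widths were 448 and 875 bp. In replicate 2 the 31 unmatched sites stood at 4.76 and 575 bp, and the matched ones at 7.82 and 943 bp. The strongest site without a partner ran from 13082291 to 13083219 in replicate 2, with q = 5.63e-11.

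Joined together, the replicate sites of V gave 139 regions: 85 (61.2%) with sites of both, 23 with replicate 1 alone and 31 with replicate 2 alone. In the 85 shared regions the midpoints of the strongest sites lay a median of 80 bp apart, and 49 pairs lay within 100 bp. Across these regions −log10 q gave r = 0.971 (Pearson) and rho = 0.768 (Spearman), as a description of regions that share a chromosome. Leaving out the 2 most extreme regions gave r = 0.865, and over the 54 regions with a replicate 1 value under 10 it was 0.361. Replicate 2 gave the higher value in 48 of the 85.

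**Figure D4:**
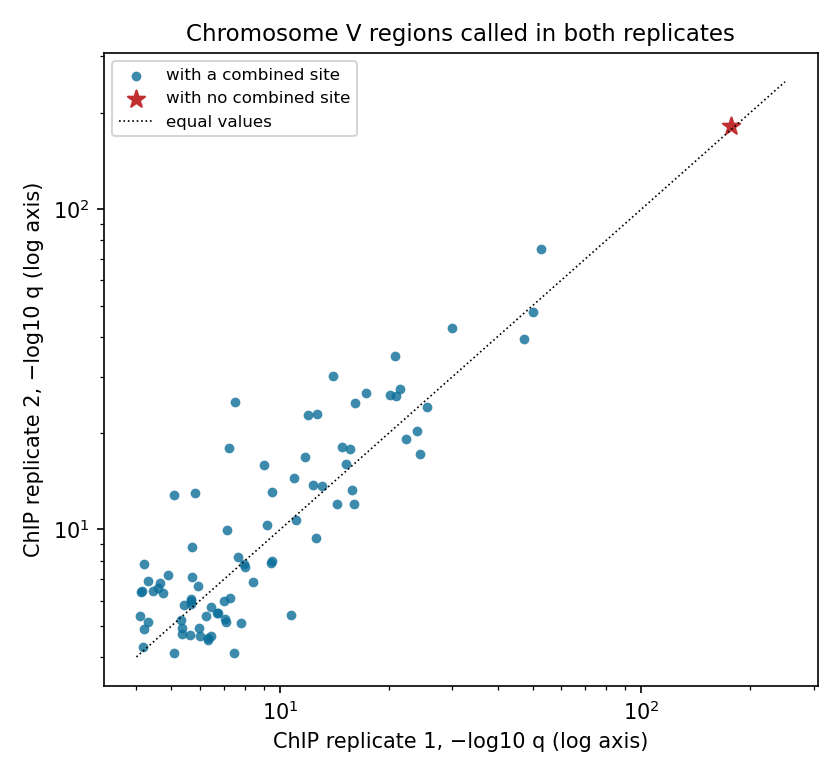
−log10 q in replicate 2 (y axis) against replicate 1 (x axis) for the 85 V regions called in both, on log axes, 1 point per region. The star is the region from 6220684 to 6230398, the strongest V region of both replicates, which has no combined site.

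The strongest V region of both replicates had no line in the combined list. It ran from 6220815 to 6230398 in replicate 1, with q = 3.01e-178, and from 6220684 to 6230323 in replicate 2, with q = 3.52e-182, and it ranked 5 in each whole list. At 9584 and 9640 bp it was the widest V site of either list and wider than any combined V site. The nearest combined site lay 6426 bp away. It was the only one of 78 V loci called in both replicates to lack a combined site, with replicate sites less than 500 bp apart joined into a locus. Only 1 further site in each replicate list had no combined counterpart. Both were weak, from 6005779 to 6006012 in replicate 1 (q = 4.42e-05) and from 12518622 to 12519196 in replicate 2 (q = 5.11e-05). The combined list thus held 113 of 115 replicate 1 sites (98.3%) and 120 of 122 replicate 2 sites (98.4%), beside 95.9 and 97.7% on the other chromosomes. A replicate maximum above the combined maximum was not particular to V. On II the highest −log10 q was 248 and 282 in replicates 1 and 2 and 210 in the combined list. On X it was 255, 262 and 156. Replicate sites without a combined site also occurred there. On II 108 of 113 replicate 1 sites and 114 of 119 replicate 2 sites overlapped a combined site, and on X 100 of 106 and 108 of 115. Whether loci called in both replicates were among those left out was not tested.

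The 25 strongest combined V sites were all found in both replicate lists and ranked from 7 to 145 in the whole combined list. They made up 9.73% of V sites and 33.0% of the base pairs covered on V. Their median width was 3324 bp, and 22 were wider than 2000 bp. The centre held 18 of them, the left arm 4 and the right arm 3. Each had a lower q in the combined list than in either replicate, and in 17 replicate 2 had the lower q of both replicates.

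In the centre, the strongest site was the one from 13652186 to 13659678, with a combined q of 1.31e-134 and values of 1.80e-53 in replicate 1 and 1.05e-75 in replicate 2. At 7493 bp it was the widest site of V, and a second site of the 25, from 13649563 to 13650663 (q = 3.31e-43), lay 1522 bp to its left. The site from 13907497 to 13909869 had q = 9.20e-73, with 1.38e-30 and 3.55e-43 in replicates 1 and 2. It stood alone, 98390 bp from the nearest other combined site.

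A further pair of centre sites was close to that q but differed in shape. The site from 8934226 to 8940346 (q = 2.04e-72) was 6121 bp wide and consisted of 3 separate sites in each replicate list, with lowest q of 1.25e-24 and 4.68e-21. The site from 14685400 to 14689204 (q = 1.26e-71) held 2 sites in replicate 1 (lowest q 1.40e-21) and 1 in replicate 2 (1.86e-35). Its nearest combined neighbour was 157726 bp away.

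Further along the ranking came sites from 9342999 to 9345324 (q = 1.00e-51), from 13087482 to 13091383 (1.02e-51) and from 9088579 to 9089259 (1.36e-50). The last was the narrowest of the 25, at 681 bp, with q = 3.41e-22 in replicate 1 and 4.20e-28 in replicate 2. The ratio between the replicates' −log10 q was highest at the site from 6514691 to 6517722, which had q = 3.10e-08 in replicate 1, rank 293 of that list, and 8.07e-26 in replicate 2, rank 68. At the site from 5838401 to 5840501 the order was turned, with 4.32e-25 in replicate 1 and 5.67e-18 in replicate 2. The remaining centre sites of the 25 had combined q-values from 1.08e-46, at 7434827 to 7438150, to 6.77e-29, at 10713846 to 10716284.

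In the left arm the strongest was the site from 723424 to 729899, second on V, with a combined q of 9.03e-116 and values of 8.79e-51 in replicate 1 and 1.23e-48 in replicate 2. Both replicates divided it into 2 sites. The third site of V, from 4822851 to 4827306, had q = 1.11e-88, with 4.44e-48 and 6.16e-40 in the replicates, each as a single site. Sites from 1152827 to 1156497 (q = 4.01e-56) and from 1804090 to 1806495 (q = 1.61e-49) completed the left arm.

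In the right arm the site from 19519339 to 19523106 had q = 1.08e-77, with 3.49e-26 in replicate 1 and 9.07e-25 in replicate 2. Nearest the chromosome end lay the site from 20771738 to 20779110 (q = 2.60e-75), the second widest of V at 7373 bp. It overlapped 3 sites in each replicate list, the lowest q being 1.17e-12 and 1.93e-23. The site from 20707030 to 20712477 (q = 2.89e-39) lay to its left.

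Wide combined sites were often made of several replicate sites. Of the 25, 12 overlapped more than 1 site in at least 1 replicate list, 11 in replicate 1 and 9 in replicate 2. Over the 76 combined sites found in both lists this held for 17. The reverse did not occur on V, since none of the 115 replicate 1 and 122 replicate 2 sites overlapped more than 1 combined site. The combined site was wider than the stretch spanned by the sites of each replicate in 65 of the 76, with a median of 1277 bp beside 875 bp in replicate 1 and 988.5 bp in replicate 2. Its −log10 q was a median of 0.996 times the sum of the strongest replicate values (quartiles 0.899 and 1.17). That sum is not independent of the combined value, since the samples are the same.

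**Figure D5:**
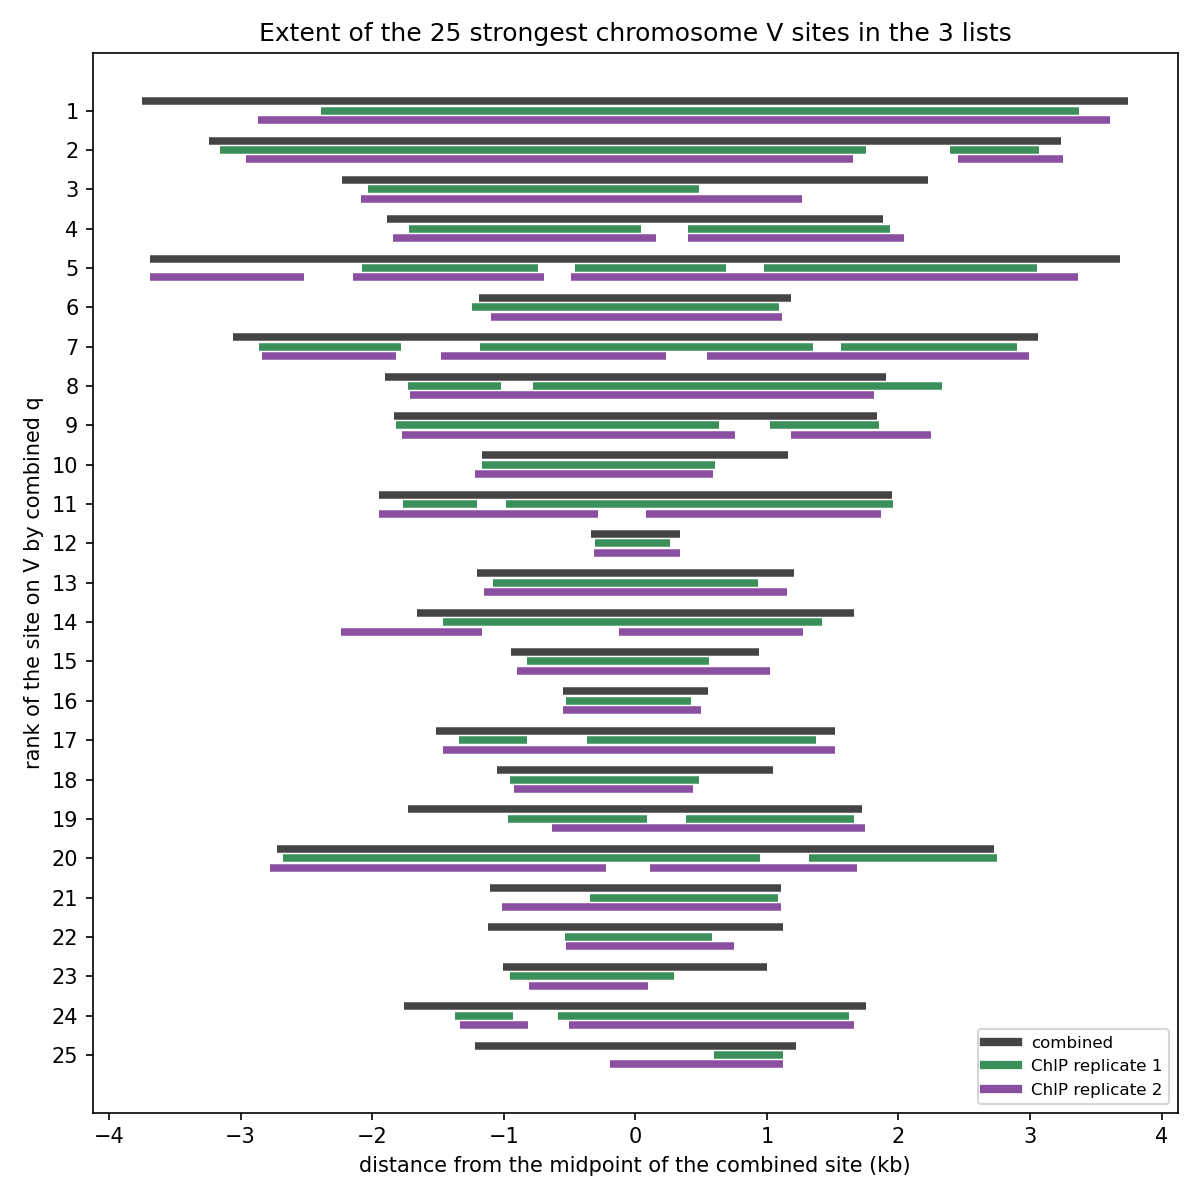
Extent of the 25 strongest combined V sites and of the replicate sites that overlap them, as distance in kb from the midpoint of the combined site (x axis), ordered by rank on V (y axis). Of these, 13 are a single site in both replicates, and the widest, ranks 1 and 5, span 7493 and 7373 bp.

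Many V sites had close neighbours. A second combined site lay within 2 kb of 101 V sites, 39.3% (33.5 to 45.4%), beside 40.1% over all chromosomes (V against the rest, Fisher's exact test, odds ratio 0.962, adjusted p = 0.901). At 10 kb the share was 56.4% on V and 66.5% elsewhere, and that difference passed (odds ratio 0.654, Fisher's exact test, adjusted p = 0.0259, in a range of 0.0259 to 0.848 over 4 alternatives). These tests do not account for site density, which was 12.3 per Mb on V and 19.8 elsewhere. Fewer neighbours within 10 kb therefore cannot be told apart from sparser sites. The smallest gap between neighbours on V was 208 bp, in the combined list and in replicate 2, and 212 bp in replicate 1. The lists therefore hold no pair of V sites closer than that.

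Sites within 2 kb formed 43 runs, 30 of 2 sites and 13 of 3 or more. The longest run spanned 10232 bp, from 13081152 to 13091383, with 4 sites, 3 of them in both replicate lists. It includes the sites from 13083737 to 13087184 (q = 2.73e-40) and from 13087482 to 13091383, which are 297 bp apart. Another run of 4 lay from 11817269 to 11824822. The run from 1151107 to 1158841 in the left arm held 3 sites, all in both lists, with q from 4.01e-56 to 9.40e-17. In 13 runs a site found in both lists had a companion found in neither. In the run from 11530616 to 11536159, the first site had q = 2.22e-30, while those that followed after 208 and 403 bp, with q = 6.62e-05 and 1.59e-05, were in neither list. In 5 runs no site was in a replicate list.

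With gaps under 20 kb joined, the 257 sites formed 147 groups, of which 88 were single sites. The mean was 1.75 sites per group on V and 2.15 on the other chromosomes, without regard to the lower site density of V. The largest group spanned 28.5 kb from 10937308 to 10965837, with 7 combined sites, 2 replicate 1 sites and 4 replicate 2 sites. Its strongest member, from 10953364 to 10954361, had q = 5.25e-17. Groups of 6 lay from 9074085 to 9096128, around the narrow site at 9088579, and from 11508614 to 11541994. Next was a group of 5 from 11799105 to 11824822, in which 3 sites were in both lists. These were all in the centre. Of the groups of 4, the first along the chromosome, from 2129875 to 2135800 in the left arm, held combined sites with q from 3.28e-06 to 0.000118 and no replicate site.

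Along V the sites were densest just right of the middle. The densest full 1 Mb bin, from 11000001 to 12000000, held 36 combined sites and 17 and 19 sites of replicates 1 and 2. The bin before it held 30, 12 and 14. The median of the 20 full bins was 10 combined sites. Replicate counts per bin gave r = 0.930 (Pearson) and rho = 0.867 (Spearman) over the 20 bins, as a description of bins that share a chromosome. The mappable length of the bins was not measured. The bin from 14000001 to 15000000 stood out in its support, with 8 of 10 combined sites in both lists and 9 sites in each replicate. By contrast the bin from 4000001 to 5000000 held 17 combined sites, of which 13 were in neither list. Both bins were picked after their values were seen.

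Support in the left and the right arm was compared next. The left arm held 50 combined sites and the right arm 27, while replicate 1 had 15 and 19 and replicate 2 had 18 and 15. Of the left arm sites 20 (40.0%, 27.6 to 53.8%) were in at least 1 replicate list, and of the right arm sites 15 (55.6%, 37.3 to 72.4%) (odds ratio 0.533, Fisher's exact test, adjusted p = 0.858). Without replicate 2 as evidence the odds ratio was 0.326, at 26 against 51.9% (Fisher's exact test, p = 0.0276, adjusted p = 0.152), and without replicate 1 it was 0.8. Sites found in both lists numbered 9 in each arm. The centre had 58 of 180 (32.2%) in both lists and the arms 18 of 77 (23.4%), a difference that did not pass (odds ratio 1.56, Fisher's exact test, adjusted p = 0.858). Neither did the shares with q under 1e-10, at 30.6% in the centre and 24.7% in the arms, nor those wider than 1000 bp, at 30.6 and 28.6% (Fisher's exact test, adjusted p = 0.901 for both). In the replicates' own lists both directions turned. Sites wider than 1000 bp made up 33.7% of the centre and 57.6% of the arms in replicate 2 (odds ratio 0.375, Fisher's exact test, adjusted p = 0.123), and 34.6 and 38.2% in replicate 1 (0.853). For q under 1e-10 the odds ratios were 0.601 in replicate 2 and 0.895 in replicate 1.

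The right arm held the longest stretches without a site. None of the 3 lists had a site from 16595742 to 17950504, 1355 kb in length, which was the longest such stretch on V. Nor was any listed from 17953589 to 18639426 (686 kb), from 15766538 to 16355767 (589 kb) or from 19612519 to 20157566 (545 kb). The first 2 of these are parted by a pair of combined sites, from 17950505 to 17951753 (q = 7.22e-13, in both lists) and from 17953445 to 17953588 (q = 5.30e-05, in neither). In the left arm the longest ran from 2782238 to 3315306 (533 kb). Whether reads could be placed in these stretches was not tested.

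Sites returned at the right end. The last 1 Mb held 10 combined sites and 9 and 8 sites of replicates 1 and 2. The first 1 Mb held 10, 4 and 4. Near the end, the sites from 20707030 to 20712477, from 20771738 to 20779110, from 20779647 to 20781556 and from 20785557 to 20786921 were in both lists. The last site of V, from 20842539 to 20843630 (q = 1.27e-09), had a replicate 1 site at 7.31e-05 and none in replicate 2. At the left end the first site began at 8017, and the 6 sites before 723424 were all in neither list.

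At the lower limit of the list stood sites from 12517655 to 12518109 (q = 0.000148), from 8628865 to 8629563 (0.000146) and from 4847189 to 4847852 (0.000141), all in neither replicate list. The narrowest, from 11378495 to 11378561 and from 1951123 to 1951191, were 67 and 69 bp wide, with q = 7.01e-06 and 8.51e-05, and neither had a replicate site.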

How the data were processed

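Binding of tagged ZTF-4 was mapped by ChIP-seq in 2 ChIP samples with 2 input samples, grouped by their titles. The authors deposited a list of sites per ChIP sample and a combined list, made with PeakSeq (named in the source field) on WormBase WS180, per the file headers. Each line gives a start, an end and a q-value, which is the authors' deposited value. How reads were aligned and filtered and how the combined list was made is not stated in the sources used here. Read depth is unknown, so no value per sample has a precision of its own.

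The comparisons ran in Python 3.11.15, numpy 2.4.6, pandas 2.3.3 and scipy 1.17.1, and drawn with matplotlib 3.10.9. Overlap meant at least 1 bp. Each chromosome was taken to be as long as its highest site end over the 3 lists. Shares of sites were compared with two-sided Fisher's exact tests, adjusted by Benjamini-Hochberg over 11 comparisons. The 2 densities were compared with two-sided exact binomial tests adjusted over both, and were added after the data were seen. In an alternative, only the p-value of the result in question was replaced before adjustment. The other p-values of its family stayed as in the main form. Overlap calls and tests were first tested on simulated lists. Alternatives were other overlap rules, limits of q, width and distance, another centre, sites within 20 kb counted once, the other autosomes alone, and each replicate left out.

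The members, lists and tests were chosen with earlier results of these data known. Sites named by rule were the 25 with the lowest q, loci of both replicates without a combined site, the 5 largest groups and the 3 sites with the highest q. Others were named after their values were seen.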

Additional observations from a re-analysis of the deposited data

How the results depend on the processing

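Of 72 alternative values over 13 results, 48 changed neither direction nor call, and 62 of the 72 were planned. The lower density of the V arms passed in every alternative run. That of the V centre passed in all but sites within 20 kb counted once (ratio 0.818). None of the 11 comparisons of V sites passed in the form reported, and 1 had an unadjusted Fisher's exact p under 0.05. A difference passed in 3 alternatives: the centre share at q under 1e-05 (odds ratio 1.74) and with the narrower centre (1.55), and neighbours within 10 kb (0.654). The last does not account for the lower site density of V.

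The direction turned in 19 alternatives and was lost in 1, none past the threshold. With midpoints within 100 bp the odds ratios were 0.742 for replicate support, 0.851 and 0.912 for partners of replicate 1 and 2 sites, and 1.004 for left against right arm. With 50% of the shorter site overlapped, partners of replicate 1 sites gave 0.989. At q under 1e-05 they gave 0.859, partners of replicate 2 sites 0.975, neighbours within 2 kb 1.20, wide sites in the centre against the arms 0.625, and support there gave 1, with equal shares. With sites within 20 kb counted once, support gave 0.902 and replicate 1 partners 0.804. At q under 1e-20 strong V sites gave 1.21. In the lists without replicate 1 or without replicate 2 the odds ratios were 0.962 to 1.21 for strong V sites, turned without replicate 1 alone, 1.14 in both for neighbours, 0.601 to 0.895 for strength and 0.375 to 0.853 for width in the centre against the arms. The cause of these changes was not tested.

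No paired analysis was possible because the tests compare lists of sites and the input samples have no list here. Read depth is unknown, so absence from a list does not show that a site was unbound.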
